A study of Mus musculus with 36 samples.

Results

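The 119 transcripts described here were lower in resting neurons without Actl6b than in wild-type (WT) neurons, and lower in WT neurons after 6 h of KCl than in their silenced control. They were taken from 115270 transcripts by measured values. A transcript was kept when its mean in resting WT was at least 3 CPM (estimated counts divided by the library sum and multiplied by 1000000) and its mean in resting knockout (KO) was at most 0.75 of that. Its mean after 6 h of KCl had to be at most 0.67 but over 0.25 of the mean of the control. In both comparisons the highest value of the lower group also had to lie below the lowest value of the other. Of 23461 transcripts at or over the level limit, 521 met the knockout part of the rule, 3365 met the KCl part and 119 met both. These falls chose the set, so they are described below and not tested.

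BAF complexes use ATP to move nucleosomes. Actl6b codes for the actin-like subunit of their neuronal form, which takes the place of Actl6a when neural progenitors leave the cell cycle. Depolarisation of cortical neurons opens voltage-gated calcium channels. The calcium signal switches on early response transcription factors within minutes and then, over hours, a later programme in which many transcripts rise and others fall. The set described here holds the transcripts whose RNA was lower both without the subunit and after late depolarisation.

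All neurons were cortical, taken from mouse embryos at E16.5 and kept for 7 days in vitro. Resting cultures, 5 WT and 7 ACTL6B -/-, had 2 h in TTX, a sodium channel blocker, and APV, an NMDA receptor antagonist. A WT group of 5 had 2 h of TTX/APV and 1 h of KCl. A WT control group of 4 had 7 h of TTX/APV, and a WT group of 3 had 7 h of TTX/APV and 6 h of KCl. Every group therefore had the blockers, and KO neurons were not depolarised. Each library is named here by the code in its title, such as 3-4; WT groups share codes, and what a code marks is not stated in the labels. Library totals ran from 5873349 to 8015063 estimated counts at rest and after 1 h of KCl, and from 3569516 to 4051922 in both groups with 7 h of blockers, so all libraries of the longer experiment were shallower. The files do not pair transcript identifiers with genes and 0 identifiers matched the gene tables used here. Members are therefore named by their length in bases, apart from 2 identifiers, and neither the level of Actl6b nor neuronal, glial or early response markers were analysed here.

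The members were of ordinary length and of moderate to high level. Their length ran from 590 to 17332 bases with a median of 3443, against a median of 2960 over the 23461 transcripts at the level limit. Per length, the median level in resting WT was 12.6 TPM, a level corrected for transcript length, against 8.49 TPM over the same 23461. In CPM, 18 members lay between 3 and 10, 54 between 10 and 30, 35 between 30 and 100 and 12 at 100 or more. The spread between resting WT libraries was small for most: the coefficient of variation had a median of 10.2% in the members and 21.5% over the 23461, and the rule itself, by requiring no overlap, favours a small spread. The 119 members hold 117 separate profiles. A pair of 1933 bases and a pair of 5305 bases each had the same estimated counts in every library, so each pair carries 1 measurement.

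In resting KO the members fell to a median of 0.609 of the WT mean, with a range of 0.180 to 0.748. After 6 h of KCl they stood at a median of 0.463 of the 7 h control, with a range of 0.252 to 0.663. The ratio was at most 0.5 for 26 members in KO and for 72 after 6 h of KCl, and 18 members reached that limit in both. In 91 of the 119 (76.5%) the KCl ratio was the lower of the pair, as it was in 57.2% of the 23461 transcripts. The lower upper limit for KCl in the rule favours that order. Across the 119 transcripts, the log2 ratios had a Pearson r of 0.122 and a Spearman rho of 0.0678. These are descriptions over a range limited by the rule, of transcripts measured in the same libraries, and transcripts are not independent replicates.

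**Figure D1:**
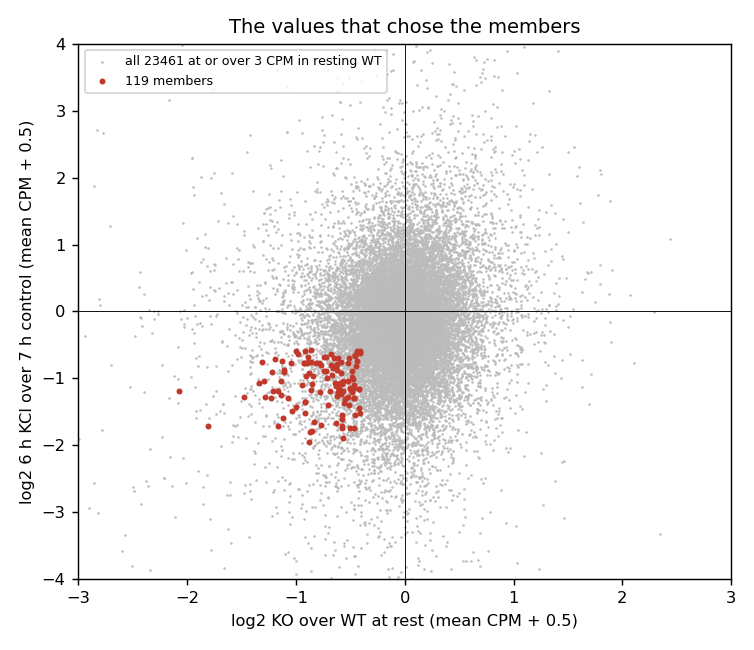
Log2 ratio of KO to WT at rest (horizontal) against log2 ratio of 6 h KCl to 7 h control (vertical), from group means in CPM plus 0.5, for 23461 transcripts (grey) and the 119 members (red); 116 grey points lie outside the axes. The members fill a block at the lower left whose edges are the limits of the rule.

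With edgeR's quasi-likelihood test fitted over all transcripts, 86 of the 119 were called lower in KO, where 1.63% of all tested transcripts were (adjusted p under 0.05), and 0 were called higher, where 1.3% of all were. After 6 h of KCl 63 of 118 tested members were called lower, against 6.88% of all, and 0 higher, against 8.46%. Non-overlap alone was met by 3.06% of the 23461 transcripts for KO below WT and by 21.4% for 6 h KCl below control. Calls in both comparisons were made for 51 members, and for 21 in neither. The rule used these contrasts and required lower values, so the 0 higher calls follow from it. The counts of lower calls say only how many members would also pass this test. Their distance from the shares over all transcripts is likewise set by the rule. The KO count was 56 without WT library 3-7 and 52 without 4-2 or without 4-4, and the KCl count was 40 without the 6 h KCl library 4-2. With the culture code as a replicate block, the KCl count was 10, so most of the 63 calls were not made in that fit. The block leaves few libraries to measure spread, since the groups hold 4 and 3 and code 3-4 has a control only. Its part in the drop was not tested. The KCl count was 84 with library totals, 90 with all RNA libraries in 1 fit and 46 without a filter on low counts. The member without a test after 6 h of KCl was 1339 bases long, at 2.28 CPM in the control and 1.09 CPM after KCl.

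The scaling shifted the late comparison. Over all tested transcripts the 6 h KCl median was -0.23 (log2) with libraries scaled by their totals and -0.03 with TMM, and among called transcripts the percentage higher was 36.4% and 55.2%. For the members the medians were -1.12 and -0.91. When the rule was applied to TMM-scaled levels 81 transcripts met it, 67 of them among the 119, and with DESeq2 size factors 94 met it, 76 of them among the 119.

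The rule required every KO value to lie below every resting WT value, so low members in each KO library were fixed in advance. The degree differed between libraries. Taking for each library the median over the 119 members of log2 (CPM + 0.5) minus that of the WT mean, the 5 resting WT libraries lay between -0.05 and 0.09. The KO libraries lay at -0.54 for 3-5, -0.59 for 1-1, -0.64 for 2-3, -0.74 for 3-3, -0.74 for 3-2, -0.81 for 4-7 and -0.93 for 4-8. KO library 4-8 held the lowest KO value of 44 members and library 1-1 the highest of 37. Over all transcripts at the level limit the same median ran only from -0.10 in 4-8 to -0.01 in 2-3. In bulk RNA, fewer cells that express a transcript and less RNA per cell cannot be told apart.

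The first number of the culture code splits both genotypes. Among codes starting with 3, the median KO to WT ratio of the members was 0.611 (2 WT, 3 KO), and among codes starting with 4 it was 0.542 (3 WT, 2 KO). A ratio below 1 in each subset is fixed by the rule, since every KO value had to lie below every resting WT value. The ratio was at most 0.75 for 109 members among codes starting with 3 and for 115 among codes starting with 4, which is likewise a description of values that chose the set. KO codes 1-1 and 2-3 have no WT library with the same first number.

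**Figure D2:**
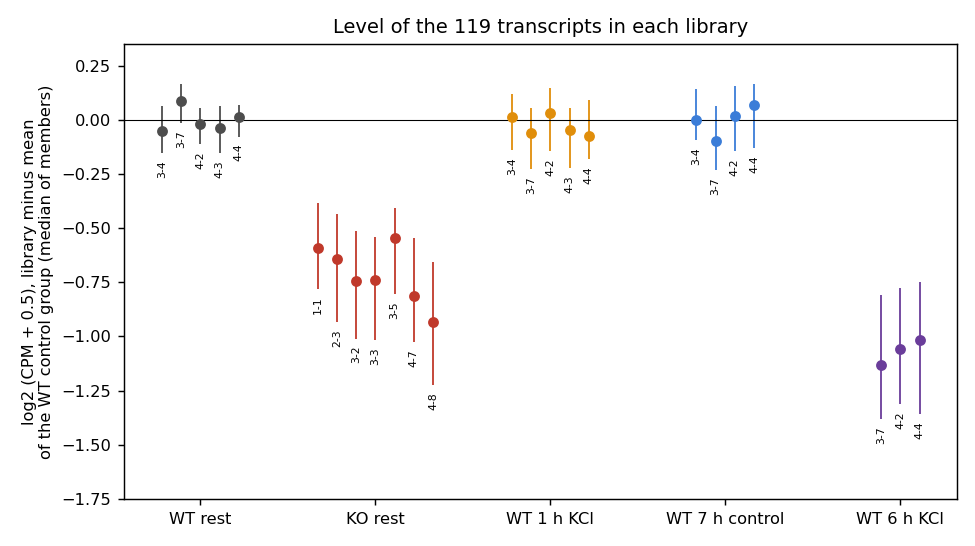
Level of the 119 members in each of the 24 libraries, as the median (point) and quartiles (bar) over members of log2 (CPM + 0.5) minus that of the WT control mean, which is WT rest for the first 3 groups and the 7 h control for the last 2; labels are library codes. KO libraries spread from -0.93 to -0.54, the 1 h KCl libraries sit with rest between -0.07 and 0.03, and the 6 h KCl libraries sit between -1.13 and -1.02.

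The deepest shared fall, ranked by the weaker of the pair, was in ENSMUST00000093534.10, of 4148 bases. In resting WT it stood at 20.6, 21.9, 17.2, 13.5 and 19.7 CPM in libraries 3-4, 3-7, 4-2, 4-3 and 4-4, and in KO its lowest, median and highest values were 0.744, 6.40 and 9.56 CPM. All KO libraries were below all resting WT libraries, as the rule required, with a wide spread among KO: codes 3-3 and 3-5 were near 1 CPM and 1-1 near 10. The 7 h controls held 28.6, 28.8, 25.9 and 38.3 CPM and the 6 h KCl libraries 9.28, 9.90 and 7.66 CPM. Silenced for 7 h it was thus higher than at rest in every library, and with KCl it was lower than at rest in every library. After 1 h of KCl it stood at 18.8, 8.63, 21.5, 15.9 and 18.2 CPM, a range that overlaps rest.

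The second in the ranking, ENSMUST00000123453.1, of 3443 bases, was close to the level limit. It stood at 2.88, 3.04, 3.38, 2.69 and 4.34 CPM in resting WT and at 0, 1.31 and 2.30 CPM as lowest, median and highest in KO. The controls of 7 h held 8.05, 7.93, 5.37 and 4.37 CPM and the 6 h KCl libraries 0, 1.94 and 2.92 CPM. Few reads stand behind these values: 16 of the 119 members had under 10 estimated counts in at least 1 of the 6 h KCl libraries and 12 in at least 1 KO library. A listed 0 can also come from the assignment of reads among isoforms.

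The 4275-base member had the lowest ratio in KO of the whole set, 0.180. Its resting WT libraries held 7.83, 9.29, 6.04, 3.03 and 6.72 CPM, while KO libraries ran from 0.652 through a median of 1.29 to 1.51 CPM. KO values were close together, and among the WT libraries 4-3 was the nearest to them. After 1 h of KCl it held 8.36, 9.50, 5.87, 5.00 and 7.34 CPM, all above every KO library. The 7 h controls stood at 12.6, 11.2, 12.6 and 14.8 CPM and the 6 h KCl libraries stood at 5.93, 4.46 and 5.51 CPM, within the resting WT range and above all KO libraries.

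The other members high in the ranking showed several patterns across the groups. The 2752-base member had nearly the same ratio in both comparisons, 0.368 in KO and 0.364 after 6 h of KCl, and in CPM it was at 6.97 ± 0.514 in resting WT (SD, n = 5), 7.29 ± 1.65 with 1 h of KCl (SD, n = 5) and 6.49 ± 2.18 in the 7 h control (SD, n = 4). The 1679-base member went from 3.95 ± 0.952 CPM at rest (SD, n = 5) to a lowest, median and highest value of 0.586, 1.05 and 1.83 CPM in KO. In the longer experiment it went from 9.59 ± 1.43 CPM in the control (SD, n = 4) to 3.67 ± 0.398 with KCl (SD, n = 3), inside the resting WT range. The 682-base member was at 17.3 ± 2.60 CPM in resting WT (SD, n = 5), 7.20 ± 3.12 in KO (SD, n = 7) and between 8.31 and 14.6 after 1 h of KCl, where all 5 libraries lay below all resting ones. The 4770-base member was listed at 0 in KO libraries 2-3 and 4-7, in the 1 h KCl library 4-4 and in the 6 h KCl library 4-4, and between 4.35 and 6.86 CPM in every library of resting WT and the 7 h control. The 2389-base member was at 3.17 ± 0.576 CPM in resting WT (SD, n = 5), at 1.74 ± 0.152 with 1 h of KCl (SD, n = 5) and from 0.296 to 2.37 in KO. Its 7 h controls lay between 9.34 and 14.1 CPM and its 6 h KCl libraries at 2.08, 5.18 and 3.98 CPM, which spans the resting range.

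At the other end of the scale, 3 abundant members of 2182, 2649 and 1868 bases made up 57.3% to 59.8% of the members' summed CPM in resting WT. The 2182-base member, the highest of the set both in CPM and per length (2516 ± 113 TPM, SD, n = 5), stood at 3285, 3398, 3480.3, 3223 and 3509 CPM in resting WT. In KO its lowest, median and highest values were 1738, 2123 and 2653 CPM, with no overlap, as the rule required. It was at 3408, 3058, 3492, 3231 and 3265 CPM after 1 h of KCl, a range that overlaps rest. In the 7 h control it was already down to 1310.2, 1539, 1420.0 and 1347 CPM, and with 6 h of KCl it stood at 911, 924 and 762 CPM.

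The 1868-base member was at 1256, 1492, 1469.9, 1234 and 1313 CPM in resting WT and at 603, 888 and 1119 CPM as lowest, median and highest in KO. It fell most of the 3 with late KCl, from 405, 399, 412 and 286 CPM in the controls to 122, 124 and 106 CPM. The 2649-base member was at 1304, 1509, 1477, 1229 and 1331 CPM in resting WT and at 576, 688 and 910.1 CPM as lowest, median and highest in KO, and it went from 464, 477, 545 and 384 CPM in the controls to 247, 286 and 182 CPM. These 3 members kept the same order of cultures at the extremes: library 1-1 was the highest and 4-8 the lowest KO library for each. All 3 dropped between rest and the 7 h control by more than they dropped in KO, and their share of the members' CPM in the control was 30.9% to 37.1%.

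**Figure D3:**
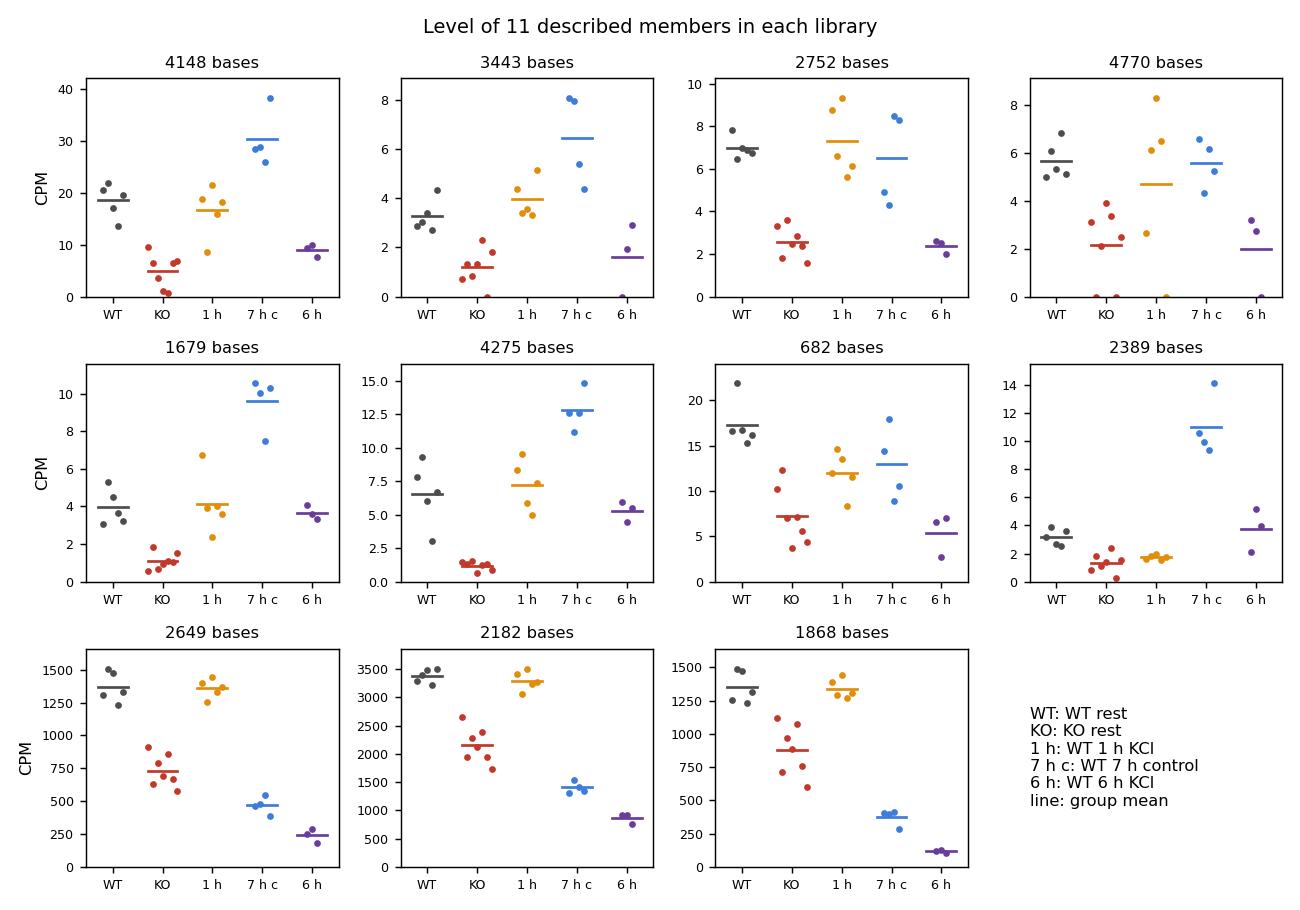
CPM of 11 members in each library, by group, each panel titled with the transcript length in bases and starting at 0 CPM; points are libraries and lines group means. The 8 members with the deepest shared fall fill the first 2 rows and the 3 most abundant the third, where the 7 h control is far below rest; in the 4148-, 3443-, 1679-, 4275- and 2389-base panels it is above rest.

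Neurons depolarised for 1 h were not used by the rule, although their resting WT control was. Most members stayed near their resting level. The ratio of 1 h KCl to rest had a median of 0.990 and quartiles of 0.898 and 1.05, and it lay within 0.8-fold and 1.25-fold of rest for 103 of the 119 (86.6%), against 65.4% of the 23461 transcripts at the level limit. The share was 83.3% among the 402 transcripts that met the knockout part of the rule only, close to that of the members, and 67% among the 3246 that met the KCl part only. The knockout-only transcripts also had a small spread in resting WT, with a median coefficient of variation of 11.4%. At 1 h 4 members were called lower, where 2% of all tested transcripts were, and 1 was called higher, where 2.54% were (edgeR, adjusted p under 0.05). The 1 h KCl libraries lay below all resting libraries in 8 members, against 4.38% of transcripts, and above them in 1, against 3.14%. The members' shares were 3.36% and 0.84% for the calls and 6.72% and 0.84% for non-overlap. At an unadjusted edgeR p under 0.05 there were 17 members, 12 of them lower, and 60 of the 119 log2 fold changes were negative. The share of all tested transcripts under that p was not counted, so the 17 cannot be set against a background.

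The WT libraries after 1 h of KCl can also be held against KO. They carry the same codes as the resting WT libraries that the rule used, and they were depolarised while KO was not. All 7 KO libraries were below all 5 of the 1 h KCl libraries in 85 members (71.4%), against 6.47% of transcripts at the level limit and 69.9% of those that met the knockout part only. The KO values had been chosen as low by the rule, so this is a description.

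A minority was lower at 1 h. In 8 members, in part others than the 8 without overlap and singled out after their values were seen, the mean after 1 h of KCl was at most 0.67 of rest, with ratios from 0.287 to 0.623. These are 6.72% of the members, against 12.2% of the 23461 transcripts, 16.7% of those that met the KCl part only and 7.46% of those that met the knockout part only. In 6 of these 8 the 7 h control was over 1.5 times rest, a level that 21 of all 119 members reached. The upper quartile of that ratio was 1.56 over the 23461 transcripts and 1.30 over the members, so the level is common among all transcripts. Both the 1 h and the 7 h ratio have the resting WT libraries as denominator. The 2659-base member stood at 5.29, 5.75, 5.35, 6.09 and 6.73 CPM at rest and at 1.66, 2.04, 1.43, 1.07 and 2.20 CPM after 1 h of KCl, without overlap (edgeR log2 fold change -1.79, SE 0.225, adjusted p = 0.0013). Its KO libraries ran from 2.49 to 5.17 CPM, between those groups and above all 1 h KCl libraries. In the 7 h control it stood at 19.9 ± 2.75 CPM (SD, n = 4), and after 6 h of KCl it stood at 8.11, 13.7 and 5.70 CPM.

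The 4239-base member had the same shape, with 7.02, 12.2, 9.94, 6.78 and 10.3 CPM at rest and 3.61, 1.60, 3.42, 2.52 and 3.52 CPM after 1 h of KCl (-1.63 on the log2 scale with an SE of 0.264, edgeR adjusted p = 0.0057). Its ratio of 7 h control to rest, 4.72, was the highest of the 119, with controls at 51.9, 41.9, 41.8 and 39.4 CPM, and it stood at 22.4, 26.8 and 26.9 CPM after 6 h of KCl, still above every resting library. The call at 1 h was lost with the culture code as a replicate block (edgeR adjusted p = 0.0596). The 3238-base member fell from 24.7 ± 2.28 CPM to 7.84 ± 1.87 CPM at 1 h (SD, n = 5 each; -1.64 on the log2 scale with an SE of 0.162, edgeR adjusted p = 0.000282). The 3158-base member fell from 40.7 ± 1.75 to 23.6 ± 4.02 CPM (SD, n = 5 each; -0.78 on the log2 scale with an SE of 0.115, edgeR adjusted p = 0.00364), and its 7 h control, at 25.7 to 46.5 CPM, overlapped rest.

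One member went the other way at 1 h. The 7108-base transcript rose from 58.6 ± 8.31 to 80.5 ± 8.81 CPM (SD, n = 5 each; 0.47 on the log2 scale with an SE of 0.114, edgeR adjusted p = 0.0439). Its groups overlapped, with a highest resting value of 67.1 and a lowest 1 h KCl value of 65.9 CPM, and over 15 alternatives the adjusted p ran from 0.00408 to 0.104. The call was lost without resting library 3-7, 4-2, 4-3 or 4-4, and without 1 h KCl library 3-4, 3-7, 4-2 or 4-4. After 6 h of KCl it stood at 60.5 ± 3.06 CPM (SD, n = 3), with its control between 86.1 and 113 CPM. The difference between the times was not tested, since the values at 6 h chose the member.

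After the longer silencing members differed from rest in both directions, as transcripts in general did. From 2 h to 7 h of TTX/APV the ratio of means ran from 0.278 to 4.72 with a median of 0.925. All 7 h libraries lay below all resting libraries in 35 members (29.4%), against 23.5% of transcripts, and above them in 27 (22.7%), against 21.8%. With TMM scaling edgeR called 63 members lower and 14 higher, where 25.7% of all tested transcripts were lower and 28.3% higher. Scaled by library totals the same fit called 37 lower and 32 higher. The shares of all tested transcripts called lower and higher on that scale are not given here, so these counts cannot be set against a background. The change of scaling took the median over all transcripts (log2) from -0.03 to 0.37 and that over the members from -0.49 to -0.09. Of the calls over all transcripts, 52.4% were higher with TMM and 68.5% with library totals. On both scales the members' median was below that of all transcripts by about the same amount. The rule used both groups compared here. It required resting WT to be high against KO and the 7 h control to be high against 6 h KCl. All 7 h libraries belong to the shallower set, so treatment time and depth cannot be told apart.

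By that TMM fit, the 63 members called lower had ratios of 7 h control to rest of 0.278 to 1.05, and the 14 called higher of 1.71 to 4.72. Their median KO to WT ratios were 0.625 and 0.580, and their median 6 h KCl to control ratios 0.501 and 0.446. The 14 also had a lower median ratio after 1 h of KCl, 0.804 against 0.994; these ratios share the resting WT libraries.

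The set was compared with the transcripts that met 1 part of the rule. Of 3246 transcripts that met the KCl part only, the 7 h control lay above rest without overlap in 45.4% and below it in 11.8%, against 22.7% and 29.4% of the members. Of 402 that met the knockout part only, it lay above in 11.4% and below in 49.3%. The members stood between these groups. The rule favours that order, since its KCl part selects high 7 h controls and its knockout part high resting WT values. After 1 h of KCl all libraries were below rest in 11.1% of the transcripts that met the KCl part only, in 5.72% of those that met the knockout part only and in 6.72% of the members. These shares describe lists chosen with some of the same libraries and were not tested.

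**Figure D4:**
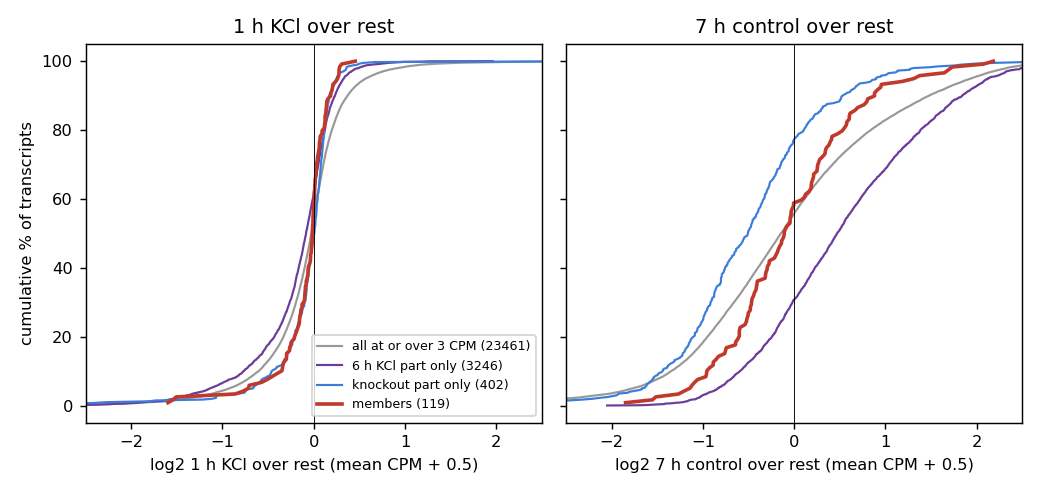
Cumulative percent of transcripts against the log2 ratio of 1 h KCl to rest (left) and of 7 h control to rest (right), from mean CPM plus 0.5, for all 23461 transcripts at the level limit, the 3246 that met the KCl part only, the 402 that met the knockout part only and the 119 members; tails beyond 2.5 are not shown. On the left the members rise steeply around 0, and on the right they lie between the curves of the partial lists, an order that the rule favours.

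Transcript levels depend on how reads were shared out among isoforms, and a whole estimated count is what an undivided set of reads gives. In 9 members (7.56%) the estimated count was whole, within 0.001, in all 24 libraries, against 2.8% of the 23461 transcripts. These 9, singled out after their values were seen, were 1274 to 4801 bases long with KO to WT ratios of 0.580 to 0.740 and 6 h KCl to control ratios of 0.283 to 0.624. All 9 had a 1 h KCl to rest ratio within 0.913 to 1.09. The 8 members that fell by the 0.67 limit at 1 h include 0 of them, which says little when 7.56% of all members are of this kind. The 1377-base member, for example, had 39.7, 49.8, 40.7, 41.0 and 37.6 CPM in resting WT and 22.5 to 32.9 CPM in KO, then 15.9, 14.5, 21.7 and 19.1 CPM in the 7 h control and 6.91, 6.11 and 13.8 CPM after 6 h of KCl. For the 4801-base member resting WT held 27.3 ± 1.86 CPM (SD, n = 5), KO 13.7 to 19.8 CPM, the 7 h control 21.4, 22.1, 20.7 and 23.3 CPM and 6 h of KCl 4.69, 10.4 and 5.51 CPM. Neither had overlap in the comparisons of the rule, which the rule required of every member. After 1 h of KCl these members stood at 40.1 ± 2.23 and 27.5 ± 1.16 CPM (SD, n = 5 each).

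Long transcripts were part of the set as well. The longest, of 17332 bases, went from 159 ± 17.4 CPM in resting WT (SD, n = 5) to 107 ± 18.6 in KO (SD, n = 7), and from 237 ± 15.9 CPM in the control (SD, n = 4) to 114 ± 7.57 with 6 h of KCl (SD, n = 3). The 13125-base member went from 84.0 ± 6.36 to 50.9 ± 7.05 CPM and from 101 ± 10.5 to 50.5 ± 10.1 CPM in the same comparisons (SD, same n). Both were near the resting level after 1 h of KCl, with ratios of 1.01 and 0.976.

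Transcripts near the limits of the rule lay close together. The member nearest the level limit was at 3.17 CPM in resting WT, and the nearest transcript outside at 2.98 CPM. The highest KO ratio inside was 0.748 and the lowest outside 0.753. For 6 h of KCl the highest ratio inside was 0.663 and the nearest outside 0.671, and at the lower limit the values were 0.252 inside and 0.249 outside.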

How the data were processed

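RNA-seq of 24 libraries was used; the 12 ATAC-seq libraries were not used, since regions could not be joined to transcripts without gene names. The deposited estimated counts and TPM values, per the file headers, are given per transcript with length and effective length; kallisto 0.44.0 is named in the submitters' processing notes, with mm9 and mm10, without a role. RNA was total RNA in a stranded kit, per the labels' protocols. CPM were computed here from library sums. Rounded counts entered edgeR 4.0.16 under R 4.3.3 (quasi-likelihood F-test, robust, TMM, filterByExpr by group, Benjamini-Hochberg over all transcripts, only the groups compared in each fit). The fit was run on simulated counts for the KO and 6 h KCl comparisons only, with the same biological spread set for every transcript. That check did not cover the 1 h and 7 h comparisons or the sharing of reads among isoforms. DESeq2 1.42.0 was an alternative. Standard errors are the log2 fold change over the square root of F. The series' text calls the samples biological replicates; p-values measure the spread between them. Estimated counts carry no interval here; the number of reads assigned limits precision.

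The 119 members and all lists were chosen with earlier results of these data known. Members were ranked by the weaker of their 2 falls: the first 2 are named by identifier, and the next 6 and the 3 highest in resting WT by length. Other members described were chosen after their values were seen. Lists of marker genes could not be applied without gene names. Promoter and protein sequences could not be matched to transcripts, so none is printed. No pair of libraries was identical.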

Additional observations from a re-analysis of the deposited data

Results flagged for a closer look

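Groups of 4 to 7 libraries were searched for a library whose gap to its nearest neighbour was above Dixon's 95% limit, in 52 sets of values over the 11 described members and the summed levels; chance gives about 1 in 20, and 3 were found. The 682-base member was at 21.9 CPM in resting WT library 3-7, against 16.7 CPM in the next. The 1679-base member was at 7.47 CPM in the 7 h control library 4-2, against 10.1 CPM in the nearest other. The 1868-base member was at 286 CPM in the 7 h control library 4-4, against 399 CPM in the nearest other.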

How the results depend on the processing

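The number of members was 81 to 141 with other scalings, level limits, a KO limit of 0.67 or no lower limit at 6 h of KCl, and 1106 when overlap between groups was allowed. Leaving out 1 library gave 122 to 163, and fewer libraries make the limit of no overlap easier to meet. Members called lower in KO numbered 54 without a filter on low counts, and 52 to 84 with 1 library left out (56, 52 and 52 without WT library 3-7, 4-2 or 4-4). After 6 h of KCl they numbered 40 to 56 with 1 library left out (40 and 42 without the 6 h KCl library 4-2 or 4-4), and 10 with the culture code as a replicate block. Same-code deviations correlated at -0.00 to 0.09 between rest and 1 h KCl and at -0.04 to 0.05 between rest and 7 h. Different codes gave -0.13 to 0.11 and -0.05 to 0.08 there, so these ranges overlapped. Between 7 h control and 6 h KCl, same codes correlated at 0.03 to 0.09 and different codes at -0.05 to 0.01, without overlap. Each of the 3 shared codes there correlated best with itself. What a shared code marks is not stated in the labels, so counts with and without the block are both given. At 1 h, 4 to 5 members were called lower with 1 library left out; the 1 higher call became 0 with library totals, without a filter and without several libraries, and 2 by DESeq2 (0 to 1 with 1 library left out). For 7 h against 2 h, library totals gave 37 lower and 32 higher and no filter gave 8 higher; with 1 library left out the counts were 61 to 64 and 12 to 15. The block gave 3 lower and 1 higher at 1 h and 55 and 11 at 7 h. DESeq2 called 111 members lower for KO and 67 for 6 h KCl. The cause was not tested. Shares of all tested transcripts called lower or higher are given for the main fits only, so counts from the alternatives have no background here.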
